A study of Homo sapiens with 12 samples.

Results

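The comparison described here sets the SOX9 derivative of LS180 cells against 2 control derivatives, all of them treated with doxycycline. LS180 is a long-established line of human colorectal cancer cells, and mucus proteins of the intestine are among its products. The tested derivative carries V5-tagged wild-type SOX9 under doxycycline control, the first control carries V5-tagged M303, a mutant SOX9 that the series design calls truncated, and the other control carries green fluorescent protein (GFP). All 6 libraries, 2 per derivative, came from cells held in 0.5 µg/ml doxycycline for 24 h, so the drug is shared by both sides and a change that it causes in all 3 derivatives does not appear. They are 6 of the 12 libraries of the series, and the other 6 are the same derivatives without doxycycline. Each construct sat in its own derivative, so among induced libraries the construct and the derivative cannot be told apart, and whether a derivative was 1 clone or a pool is not given in the sources used here.

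Genes were taken when both SOX9 libraries lay outside the range of all 4 control libraries. Of 17240 genes with enough reads to test, 4640 (26.9%) met this rule, 2428 above the controls (14.1%) and 2212 below (12.8%). Which side held more genes depended on the scaling, with 2290 above and 2400 below under RLE size factors and 2789 above and 1857 below with library totals only. A gene was then called when the adjusted p of edgeR's quasi-likelihood test, SOX9 against the mean of the 2 control derivatives, was below 0.05. This left 591 genes, 3.43% of those tested, with 370 higher in the SOX9 line (2.15%) and 221 lower (1.28%). Because range and test use the same libraries, the counts describe these libraries. With 2 libraries per line the call of a gene often turned on 1 library: 140 of the 591 genes, 103 higher and 37 lower, kept their call whichever of the 6 libraries was left out, and these carry most of the account below. Among the 591, 11 higher and 3 lower genes passed the filter on low counts only through the libraries of their high side, so that they had to differ. In all, DESeq2 called 800 genes, 406 higher and 394 lower. The edgeR test called 592 genes, 371 higher and 221 lower. That count was 176 without SOX9 replicate 1, 188 without SOX9 replicate 2, 385 without M303 replicate 2 and 1572 without GFP replicate 2.

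SOX9 is a DNA-binding protein with a high-mobility-group (HMG) box. In the intestine it is made in the crypt base, where stem cells and Paneth cells lie side by side, and it is required for Paneth cells to form in the mouse. Paneth cells secrete lysozyme, defensins and a phospholipase against bacteria. Goblet cells secrete the gel-forming mucin MUC2 and the small proteins that travel with it, and enterocytes take up fat and sugar across a brush border. The title of the series speaks of a stem cell-like program of SOX9 and of blocked intestinal differentiation, and the comparison gives the end state of the induced lines.

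Library totals were 48529770 and 31317894 counts in the SOX9 line, 41893421 and 35029487 counts in the M303 line, and 38009645 and 36108277 counts in the GFP line. Epithelial identity was checked with 8 colorectal epithelium markers, which summed to 9710 to 9730 CPM (counts scaled by library size and TMM factor) in the SOX9 libraries and 10500 to 11500 CPM in the control libraries. EPCAM, the epithelial adhesion molecule, averaged 1032 CPM in each of the 3 lines. Of these 8 markers 4 were called lower and 0 higher, against 1.28% lower and 2.15% higher over all genes. The 4 were LGALS4, CDX2, KRT20 and VIL1. The VIL1 call was lost without M303 replicate 2 (adjusted p = 0.117), SOX9 replicate 1 (0.447) or SOX9 replicate 2 (0.376). Markers of blood and immune cells summed to 3.60 to 4.13 CPM in the SOX9 libraries and 2.69 to 3.99 CPM in the controls, with 3 of 12 at 0 in every library, CD3E, MS4A1 and FCGR3A. Fibroblast markers summed to 4.90 to 5.39 CPM in the SOX9 libraries and 4.02 to 4.82 CPM in the controls, and endothelial markers to 4.82 to 5.75 CPM in the SOX9 libraries and 4.55 to 6.68 CPM in the controls. The tested members of these 3 lists, 9 in all, gave 0 calls.

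The transcript of SOX9 itself (ENSG00000125398, on the plus strand of GRCh38 chromosome 17 from 72121020 to 72126416) checks the labels only in part. It can set the GFP line apart from the other 2 lines, but it cannot tell the SOX9 and M303 labels apart. It stood at 716.8 and 765.5 CPM in the SOX9 line, against 823.3 and 872.8 CPM in M303 cells and 407.6 and 373.0 CPM in GFP cells. The level in the SOX9 line was thus between those of the 2 control lines, and SOX9 is the 1 called gene that was not outside the range. SOX9 exceeded GFP by a log2 fold change of 0.93 (adjusted p = 6.7e-06, edgeR), and SOX9 against M303 gave -0.19 (adjusted p = 0.270). The count covers endogenous and construct transcripts together, and reads of an antisense gene at the locus cannot be separated because counting ignored strand. Against both controls together the log2 fold change was 0.37 (SE 0.06, adjusted p = 0.00348), a call lost without SOX9 replicate 1 (0.0587) or SOX9 replicate 2 (0.208), and with the 4 controls taken as 1 group (0.872). Just outside the range on the higher side lay UCA1, a long noncoding RNA, at 44.8 to 48.4 CPM in the SOX9 line and 29.2 to 42.9 CPM in the controls.

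The gene furthest from the controls in the test was LYZ (ENSG00000090382, chromosome 12, 69348381 to 69354234, plus strand), which encodes lysozyme. It stood at 594.2 and 582.2 CPM in the SOX9 line, against 39.9 and 39.6 CPM in M303 cells and 44.2 and 49.6 CPM in GFP cells. The lowest SOX9 library was far above the highest control library. The log2 fold change was 3.77 (SE 0.06, edgeR adjusted p = 8.82e-14), with 3.89 against M303 and 3.65 against GFP. Per length, LYZ reached 1353 TPM (a level per annotated length, scaled to the same sum in each library) in the SOX9 line, against 90.3 TPM in M303 cells and 106.9 TPM in GFP cells, which is rank 77 among all tested genes in the SOX9 line and rank 1927 in the controls.

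Other Paneth cell products were also higher in the SOX9 line. The defensin gene DEFA5 stood at 34.5 and 37.2 CPM in the SOX9 line, against 2.43 and 1.91 CPM in M303 cells and 0.0532 and 0.666 CPM in GFP cells (log2 fold change 5.34, SE 0.29, adjusted p = 1.05e-05). The neighbouring defensin gene DEFA6 stood at 20.9 and 21.7 CPM in the SOX9 line, against 4.09 and 1.68 CPM in M303 cells and 1.54 and 1.22 CPM in GFP cells (3.40, SE 0.24, adjusted p = 6.39e-06). Both M303 libraries were above both GFP libraries for each defensin gene, but M303 against GFP was not called for DEFA5 (log2 fold change 2.61, adjusted p = 0.9995) or DEFA6 (1.08, adjusted p = 0.9995). These 2 genes are close relatives, and reads that map to both were not counted. PLA2G2A, a secreted phospholipase, was already abundant in the controls and stood at 204.3 and 200.4 CPM in the SOX9 line, against 125.2 and 117.0 CPM in M303 cells and 91.5 and 108.7 CPM in GFP cells (0.88, SE 0.07, adjusted p = 5.81e-06). Of 5 tested Paneth cell secretion genes (of 11 listed) 4 were called higher, against 2.15% of all genes, and all 4 kept their call without any 1 library. The other tested member, ANG, was not called and lay inside the range of the controls. The list's median log2 fold change was 3.40, against 0.02 over all tested genes. The antimicrobial lectins REG3A and REG3G had 0 counts in all 6 libraries.

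**Figure D1:**
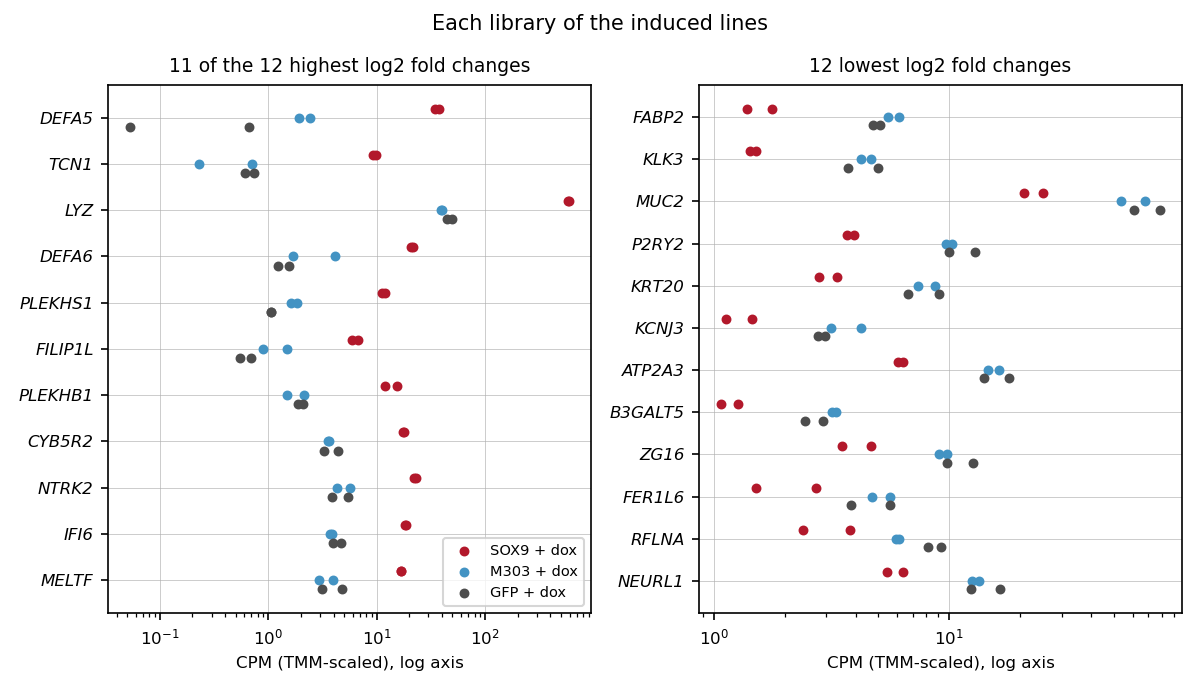
The 11 genes reported of the 12 highest, and the 12 lowest, log2 fold changes among the called genes that average 1 log2 CPM or more, as CPM on a log axis, with 1 point per library of the SOX9, M303 and GFP lines under doxycycline. For each gene both SOX9 libraries lie on one side of all 4 control libraries, as the choice of genes requires, and LYZ stands at 594.2 and 582.2 CPM against at most 49.6 CPM.

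Of the 12 highest fold changes, 8 genes beside LYZ, DEFA5 and DEFA6 are described here. TCN1, a secreted vitamin B12 binding protein, stood at 9.15 and 9.86 CPM in the SOX9 line, against 0.713 and 0.231 CPM in M303 cells and 0.745 and 0.610 CPM in GFP cells (log2 fold change 4.04, SE 0.28, adjusted p = 1.12e-06). PLEKHS1, a pleckstrin-homology domain protein, stood at 12.01 and 11.13 CPM in the SOX9 line, against 1.86 and 1.62 CPM in M303 cells and 1.07 and 1.05 CPM in GFP cells (3.09, adjusted p = 3.14e-07). NTRK2, the receptor of brain-derived neurotrophic factor, stood at 23.3 and 22.3 CPM in the SOX9 line, against 4.33 and 5.73 CPM in M303 cells and 3.91 and 5.44 CPM in GFP cells (2.24, adjusted p = 9.63e-07). IFI6, an interferon-induced mitochondrial protein, stood at 18.8 and 18.2 CPM in the SOX9 line, against 3.85 and 3.70 CPM in M303 cells and 4.69 and 3.99 CPM in GFP cells (2.19, adjusted p = 5.08e-07). The other 4 were FILIP1L (2.86), PLEKHB1 (2.86), the cytochrome b5 reductase CYB5R2 (2.24) and the transferrin-related surface protein MELTF (2.17). Their control levels were low, and the highest control library of any of these 4 was at 4.798 CPM. These 11 genes kept their call under each alternative setting that was run.

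Promoter windows of RefSeq (GRCh38.p14, 250 bases before to 50 after the start that its table gives for a gene) were searched on both strands for 3 short sequences of the kind that SOX proteins bind. One was AACAAT, another was ACAATG and the last was ACAAAG, and matches can overlap one another. Of the 12 highest and 12 lowest genes 15 were searched and 4 of these held a match. These 4 are printed so that the match can be seen in its context, in lower case with each match in capitals, 5′ to 3′ on the gene's strand (a match on the other strand appears as its reverse complement). They are TCN1 at chr11:59866438-59866737 (minus strand) and FILIP1L at chr3:99876124-99876423 (minus strand), both higher in the SOX9 line, and KRT20 at chr17:40885193-40885492 (minus strand) and KLK3 at chr19:50854665-50854964 (plus strand), both lower in the SOX9 line.
TCN1: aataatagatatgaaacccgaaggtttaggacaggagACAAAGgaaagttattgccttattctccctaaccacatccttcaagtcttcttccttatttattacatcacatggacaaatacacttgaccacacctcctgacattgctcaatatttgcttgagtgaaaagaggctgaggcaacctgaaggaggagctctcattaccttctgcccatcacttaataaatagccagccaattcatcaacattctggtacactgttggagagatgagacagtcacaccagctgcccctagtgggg
FILIP1L: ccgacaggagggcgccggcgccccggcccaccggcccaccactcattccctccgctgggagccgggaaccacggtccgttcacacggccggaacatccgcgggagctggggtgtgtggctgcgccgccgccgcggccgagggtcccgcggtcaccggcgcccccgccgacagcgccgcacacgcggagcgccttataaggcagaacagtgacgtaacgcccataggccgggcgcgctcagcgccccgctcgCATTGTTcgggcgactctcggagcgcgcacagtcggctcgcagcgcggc
KRT20: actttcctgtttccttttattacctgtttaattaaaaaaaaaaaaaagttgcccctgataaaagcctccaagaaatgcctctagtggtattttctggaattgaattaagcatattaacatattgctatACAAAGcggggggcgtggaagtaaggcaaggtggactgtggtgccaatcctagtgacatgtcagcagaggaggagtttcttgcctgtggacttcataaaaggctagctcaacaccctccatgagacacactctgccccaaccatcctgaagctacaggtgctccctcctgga
KLK3: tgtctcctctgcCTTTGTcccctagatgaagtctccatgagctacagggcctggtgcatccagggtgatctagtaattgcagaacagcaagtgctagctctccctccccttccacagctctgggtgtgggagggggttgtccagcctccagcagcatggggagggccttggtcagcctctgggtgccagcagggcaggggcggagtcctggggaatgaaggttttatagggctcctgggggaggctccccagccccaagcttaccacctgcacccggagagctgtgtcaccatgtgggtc
The FILIP1L window is at a start inside the gene as counted (99830141 to 100114513), not at its outer end. The ACAAAG of TCN1 lay 213 bases before the start and that of KRT20 122 bases before it. In KLK3 it lay on the other strand, 238 bases before the start, and in FILIP1L the overlapping ACAATG and AACAAT lay just after the start on the other strand. Over all members with a window, a match to any of the 3 sequences was found for 80 of 294 higher genes (27.2%) and 46 of 168 lower genes (27.4%), against 2237 of 11620 tested genes (19.3%). By sequence, ACAATG was found in 11.9% of the higher and 5.95% of the lower windows, against 6.19% of all. ACAAAG was found in 17.3% of the higher and 17.9% of the lower windows, against 11.2% of all. The median GC content was 64.3% in the higher and 65.5% in the lower windows, against 65.0% of all. These shares are descriptions with no test, and a match is not evidence of binding.

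The 591 genes covered a wide range of expression. Among the 370 higher genes the median level was 44.5 CPM in the SOX9 line and 31.5 CPM in the controls, and among the 221 lower genes 48.9 CPM in the SOX9 line and 65.6 CPM in the controls. Most differences were small: 80 higher genes differed by 2-fold or more, 90 by 1.5-fold to 2-fold and 200 by less, and of the lower genes 34, 43 and 144 fell in these classes. The median log2 fold change was 0.55 among the higher genes and -0.45 among the lower genes. For 21 higher genes every control library was under 1 CPM, and for 6 lower genes both SOX9 libraries were under 1 CPM. These 21 and 6 genes, and the 80 and 34, include the 11 higher and 3 lower genes that passed the filter only through their high side. MOBP, known from myelin, had 38 and 24 counts in the SOX9 libraries and 0 in all controls, at least 38.5-fold higher against a floor of 3 counts over the controls. The lipid droplet protein CIDEC had 0 counts in both SOX9 libraries and 9 to 20 counts per control library, at least 9.48-fold lower against the same floor over the SOX9 libraries. Both MOBP and CIDEC passed the filter only through their high side, so they had to differ. The MOBP call was lost without SOX9 replicate 1 (adjusted p = 0.0984) or SOX9 replicate 2 (0.0542), and the CIDEC call without GFP replicate 1 (0.0975), M303 replicate 1 (0.102), M303 replicate 2 (0.125), SOX9 replicate 1 (0.391) or SOX9 replicate 2 (0.332). By TPM, 6 higher genes ranked among the 200 most abundant in the SOX9 line and 1 did so in the controls. Of the lower genes 7 ranked there in the SOX9 line and 10 in the controls.

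**Figure D2:**
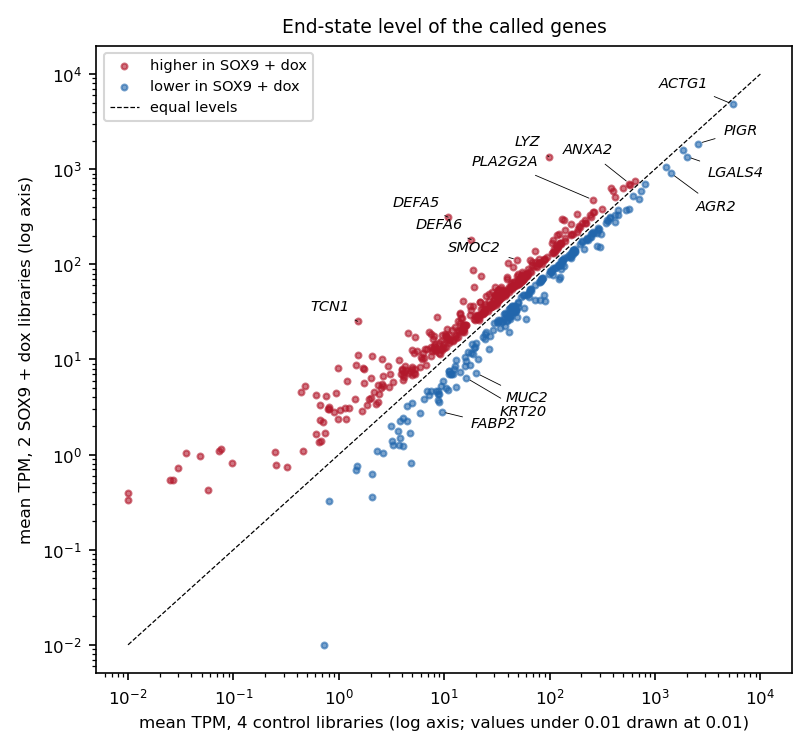
Mean TPM of the 591 called genes in the 2 SOX9 libraries (vertical, log axis) against the 4 control libraries (horizontal, log axis), with the line of equal levels dashed. LYZ stands apart at 1353 TPM in the SOX9 line, and most genes lie close to the line.

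Of the 10 genes that the rule named for abundance LYZ had a log2 fold change of 3.77, and the other 9 lay between -0.59 and 0.71. The immunoglobulin transporter PIGR stood at 2066 and 2035 CPM in the SOX9 line, against 2662 and 2877 CPM in M303 cells and 3107 and 2825 CPM in GFP cells (log2 fold change -0.48, SE 0.06, edgeR adjusted p = 0.000281). The galactose-binding lectin LGALS4 stood at 756.9 and 762.3 CPM in the SOX9 line, against 1106 and 1120 CPM in M303 cells and 1142 and 1203 CPM in GFP cells (-0.59, adjusted p = 2.12e-05). The membrane mucin MUC13 stood at 573.7 and 555.5 CPM in the SOX9 line, against 358.6 and 346.8 CPM in M303 cells and 342.6 and 329.9 CPM in GFP cells (0.71, adjusted p = 4.15e-06). In all 3 genes both SOX9 libraries lay on one side of all 4 controls, as the choice of genes requires, and no single library decided the call. The further 6 of these 10 genes, ANXA2, ITGA6 and PSAP higher and ACTG1, ENO1 and S100A14 lower, had log2 fold changes between -0.29 and 0.29. All 6 lost their call without SOX9 replicate 1 or 2, M303 replicate 2 or, except for ANXA2 and ENO1, M303 replicate 1, with adjusted p up to 0.552 for ENO1.

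Several goblet cell products stood lower. MUC2, the gel-forming mucin, stood at 20.8 and 24.9 CPM in the SOX9 line, against 53.4 and 67.9 CPM in M303 cells and 78.5 and 61.0 CPM in GFP cells (log2 fold change -1.51, SE 0.13, edgeR adjusted p = 3.27e-05). ZG16, a lectin of mucus granules, stood at 4.66 and 3.51 CPM in the SOX9 line, against 9.08 and 9.78 CPM in M303 cells and 9.80 and 12.6 CPM in GFP cells (-1.32, adjusted p = 0.000612). AGR2, the disulfide isomerase that mucin folding requires, was the most abundant of the group. It stood at 637.4 and 621.9 CPM in the SOX9 line, against 925.3 and 974.0 CPM in M303 cells and 1001 and 1110 CPM in GFP cells (-0.67, adjusted p = 1.64e-05). REG4, a secreted lectin, was lower by a log2 fold change of -0.85 (adjusted p = 6.69e-06). SPINK4, a protease inhibitor of goblet cells, stood at 23.4 and 26.6 CPM in the SOX9 line, against 44.3 and 50.5 CPM in M303 cells and 46.4 and 59.3 CPM in GFP cells (adjusted p = 8.71e-05). Of 23 tested secretory granule and mucus genes 10 were called lower and 2 higher, against 1.28% lower and 2.15% higher over all genes, and the list's median was -0.59. The 5 genes just described kept their call without any 1 library. The trefoil peptides TFF1 (-0.58), TFF2 (-0.78) and TFF3 (-0.60) were also called lower, but TFF1 lost its call without SOX9 replicate 2 (adjusted p = 0.315) and TFF2 without SOX9 replicate 1 (0.140) or 2 (0.180). TFF3 lost it without M303 replicate 1 (0.0939) or 2 (0.0832) or SOX9 replicate 1 (0.183) or 2 (0.180). SERPINA1 lost it without SOX9 replicate 1 (0.144) or 2 (0.189), and KLK1 without M303 replicate 1 (0.105) or 2 (0.0509) or SOX9 replicate 1 (0.172) or 2 (0.486). The 2 higher members were TCN1, which is a specific granule protein of neutrophils as well as a gut product, and the goblet cell protease CLCA1. CLCA1 stood at 0.981 and 0.822 CPM in the SOX9 line and at most 0.190 CPM in the controls, and its call was lost without SOX9 replicate 1 (0.400) or 2 (0.195). It passed the filter only through the SOX9 libraries.

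Of 21 tested transcription factors of the secretory and intestinal lineages 6 were called lower and 0 higher, against 1.28% lower and 2.15% higher over all genes, and 4 of the 6 kept their call without any 1 library. The list's median was -0.24, and 2 of the 21 lay above the range of the controls. ATOH1, which directs cells to the secretory lineage, stood at 15.3 and 14.7 CPM in the SOX9 line, against 29.2 and 34.2 CPM in M303 cells and 37.7 and 32.7 CPM in GFP cells (log2 fold change -1.15, SE 0.11, edgeR adjusted p = 1.64e-05). SPDEF, a goblet cell maturation factor, stood at 8.91 and 9.96 CPM in the SOX9 line, against 17.7 and 19.0 CPM in M303 cells and 24.6 and 19.3 CPM in GFP cells (-1.09, adjusted p = 0.000210). CDX2, the homeobox factor that sets intestinal identity, stood at 125.4 and 132.5 CPM in the SOX9 line, against 178.6 and 195.3 CPM in M303 cells and 201.3 and 186.3 CPM in GFP cells (-0.56, adjusted p = 0.000199). KLF4, a factor of differentiated epithelium, was lower by -0.60 (adjusted p = 0.000795). These are the 4 that kept their call. CDX1 (-0.52) lost it without SOX9 replicate 1 (0.0834) and FOXA3 (-0.64) without SOX9 replicate 2 (0.237). CREB3L1, a membrane-bound factor of secretory capacity, stood at 42.2 and 43.9 CPM in the SOX9 line, against 75.8 and 79.5 CPM in M303 cells and 95.3 and 83.5 CPM in GFP cells (-0.95, adjusted p = 5.91e-06). It was the 1 called gene of 20 tested for endoplasmic reticulum folding and secretion, against 1.28% called lower over all genes. Of these 20 genes 8 lay below the control range and 4 above, against 12.8% and 14.1% of all genes, and the median was -0.01. Of the 18 mucin glycosylation enzymes 2 were called higher and 3 lower, against 2.15% higher and 1.28% lower over all genes. Only the sialyltransferase ST3GAL4 (0.71, adjusted p = 0.000135) kept its call without any 1 library.

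Enterocyte genes were called in both directions, and more of those tested lay below the control range than above it. FABP2, the intestinal fatty acid binding protein, stood at 1.39 and 1.77 CPM in the SOX9 line, against 6.11 and 5.47 CPM in M303 cells and 4.74 and 5.10 CPM in GFP cells (log2 fold change -1.77, SE 0.23, edgeR adjusted p = 0.000340). It was the lowest fold change by the naming rule, and the 1 called gene of 11 tested for enterocyte lipid handling. Over all genes 1.28% were called lower. Of these 11 genes 6 lay below the control range and 1 above, against 12.8% and 14.1% of all genes. Their median log2 fold change was -0.135. KRT20, a keratin of differentiated colonic epithelium, stood at 2.80 and 3.35 CPM in the SOX9 line, against 8.68 and 7.35 CPM in M303 cells and 6.68 and 9.01 CPM in GFP cells (-1.38, adjusted p = 0.00103). GUCY2C, the guanylin receptor, stood at 12.5 and 14.4 CPM in the SOX9 line, against 26.3 and 24.5 CPM in M303 cells and 31.7 and 32.3 CPM in GFP cells (-1.09, adjusted p = 2.17e-05). All 3 were below every control library, as the choice of genes requires. GUCY2C is in the ion channel and guanylin list, where of 15 tested genes 1 was called higher and 4 lower. There 7 genes lay above the control range and 5 below, with a median of 0.058. KRT20 is in the keratin list, where of 12 tested genes 2 were called higher and 2 lower. There 3 lay above the range and 5 below, with a median of -0.038. Over all genes 2.15% were called higher and 1.28% lower. In another list, HMGCS1, an early enzyme of cholesterol synthesis, was higher at 496.8 and 493.2 CPM in the SOX9 line, against 221.0 and 198.3 CPM in M303 cells and 222.6 and 250.6 CPM in GFP cells (1.15, adjusted p = 2.59e-07). The list as a whole leaned the other way, with 10 of 22 tested genes below the control range and 2 above, against 12.8% and 14.1% of all genes. Its median was -0.115. Of 22 tested cholesterol synthesis genes HMGCS1 was the 1 called higher, and INSIG1, which retains sterol regulators in the endoplasmic reticulum, the 1 called lower (-0.35), a call lost without SOX9 replicate 1 (0.195) or 2 (0.108). Among 19 tested brush border and digestion genes 3 were called higher and 4 lower, against 2.15% higher and 1.28% lower over all genes. Of these 19 genes 9 lay below the control range and 3 above, against 12.8% and 14.1% of all genes, and their median was -0.198. The higher ones were MUC13, the glucose transporter SLC5A1 at 48.4 and 45.6 CPM in the SOX9 line, against 28.3 and 25.5 CPM in M303 cells and 23.0 and 20.7 CPM in GFP cells (0.96, adjusted p = 1.44e-05), and the adhesion molecule CEACAM1 (0.87, adjusted p = 0.000775). Reads of CEACAM1 that also map to related CEACAM genes were not counted. The lower ones were LGALS4, the brush border myosin MYO1A (-1.02, adjusted p = 0.000511), MYO7B and VIL1. MYO7B (-0.54) lost its call without M303 replicate 1 (0.0510) or 2 (0.0706) or SOX9 replicate 1 (0.229) or 2 (0.136), and VIL1 (-0.26) without M303 replicate 2 (0.117) or SOX9 replicate 1 (0.447) or 2 (0.376). The genes of the next sentence were chosen after their values were seen. PADI2 (-1.05, adjusted p = 0.000213), a peptidylarginine deiminase, and HEPACAM2 (-1.05, adjusted p = 0.000398), an adhesion molecule, also kept their call without any 1 library.

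The other genes among the 12 lowest encode proteins of several kinds. KLK3, a kallikrein protease best known as prostate-specific antigen, stood at 1.43 and 1.52 CPM in the SOX9 line, against 4.64 and 4.22 CPM in M303 cells and 4.98 and 3.72 CPM in GFP cells (log2 fold change -1.58, SE 0.25, edgeR adjusted p = 0.00196). KLK6, another kallikrein, differed the other way, at 106.8 and 101.1 CPM in the SOX9 line, against 65.2 and 69.0 CPM in M303 cells and 56.1 and 55.2 CPM in GFP cells (0.77, adjusted p = 9.09e-06). Of 13 tested kallikreins 3 were called lower and 1 higher, against 1.28% lower and 2.15% higher over all genes. P2RY2, a receptor for extracellular nucleotides, stood at 3.92 and 3.70 CPM in the SOX9 line, against 9.73 and 10.3 CPM in M303 cells and 12.9 and 9.98 CPM in GFP cells (-1.49, adjusted p = 0.000120). ATP2A3, a calcium pump of the endoplasmic reticulum, stood at 6.37 and 6.04 CPM in the SOX9 line, against 16.3 and 14.6 CPM in M303 cells and 17.99 and 14.03 CPM in GFP cells (-1.34, adjusted p = 8.71e-05). NEURL1, a ubiquitin ligase, was lower by -1.20 (adjusted p = 0.000458). These genes kept their call without any 1 library. The other 4 did not: the galactosyltransferase B3GALT5 (-1.32) lost it without SOX9 replicate 1 (0.130) or 2 (0.226), and RFLNA (-1.20) without SOX9 replicate 2 (0.106). The potassium channel KCNJ3 (-1.34) lost it without M303 replicate 2 (0.0574) or SOX9 replicate 1 (0.264) or 2 (0.0798), and FER1L6 (-1.25) without M303 replicate 1 (0.0525) or SOX9 replicate 1 (0.377).

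Crypt base and WNT pathway genes included several higher members. SMOC2, a calcium-binding matrix protein made at the crypt base, stood at 110.5 and 115.7 CPM in the SOX9 line, against 60.3 and 58.4 CPM in M303 cells and 39.5 and 45.4 CPM in GFP cells (log2 fold change 1.17, SE 0.07, edgeR adjusted p = 4.38e-07). Its paralogue SMOC1, chosen after its value was seen, stood at 43.7 and 46.9 CPM in the SOX9 line, against 16.4 and 16.6 CPM in M303 cells and 17.5 and 16.2 CPM in GFP cells (1.44, adjusted p = 4.38e-07). OLFM4, a secreted glycoprotein of crypt stem cells, stood at 72.6 and 68.5 CPM in the SOX9 line, against 60.5 and 61.9 CPM in M303 cells and 38.4 and 36.2 CPM in GFP cells (0.56, adjusted p = 0.000285). OLFM4 was thus close to M303, with a log2 fold change of 0.21 and an adjusted p of 0.318 against that line, and its call was lost with the 4 controls taken as 1 group (0.458). Of 17 tested crypt base stem cell genes 5 were called higher and 1 lower, against 2.15% higher and 1.28% lower over all genes, with a median of 0.15. Of these 6 calls, those of SMOC2 and OLFM4 held without any 1 library. LGR5, the receptor that marks crypt stem cells, stood at 85.2 and 84.1 CPM in the SOX9 line, against 69.0 and 61.5 CPM in M303 cells and 69.2 and 72.9 CPM in GFP cells (0.31, adjusted p = 0.0250). Its call was lost without M303 replicate 2 (0.0975) or SOX9 replicate 1 (0.343) or 2 (0.274).

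APCDD1, a membrane inhibitor of WNT signalling, stood at 110.7 and 114.0 CPM in the SOX9 line, against 37.3 and 41.0 CPM in M303 cells and 31.7 and 26.3 CPM in GFP cells (log2 fold change 1.74, SE 0.08, edgeR adjusted p = 3.26e-08). NKD1, a cytoplasmic WNT inhibitor that WNT signalling induces, stood at 189.4 and 219.5 CPM in the SOX9 line, against 109.2 and 121.4 CPM in M303 cells and 117.0 and 96.6 CPM in GFP cells (0.88, adjusted p = 2.49e-05). The ligand WNT11 was higher by 1.12 (adjusted p = 0.000960). These 3 kept their call without any 1 library. In all, 4 of 19 tested WNT genes were called higher and 0 lower, against 2.15% and 1.28% over all genes, with a median of 0.16. The fourth was SP5, which stood at 1.02 and 2.09 CPM in the SOX9 line and 0.266 to 0.523 CPM in the controls and lost its call without GFP replicate 1 (0.0506), M303 replicate 1 (0.0774) or 2 (0.104), or SOX9 replicate 1 (0.0740) or 2 (0.675). GREM1, a secreted inhibitor of bone morphogenetic proteins, stood at 97.2 and 100.4 CPM in the SOX9 line, against 149.9 and 136.7 CPM in M303 cells and 172.6 and 173.6 CPM in GFP cells (-0.67, adjusted p = 2.60e-05). It was the 1 lower gene of 19 tested in this and the TGF-beta pathway, where 4 genes were called higher. Over all genes 1.28% were called lower and 2.15% higher. Of the 4 higher genes 0 kept that call without any 1 library.

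Among the other higher genes were some with surface, matrix or signalling products. In this paragraph PRSS23, SLC6A14, NEDD9, KCNN4, CD109 and RNASE1 were chosen after their values were seen. PRSS23, a secreted serine protease, averaged 298.2 CPM in the SOX9 line, against 132.1 CPM in M303 cells and 102.6 CPM in GFP cells (n = 2 each). Its log2 fold change was 1.36 (SE 0.06, edgeR adjusted p = 1.58e-08). SLC6A14, an amino acid transporter, stood at 69.9 and 63.6 CPM in the SOX9 line, against 23.5 and 20.7 CPM in M303 cells and 22.1 and 22.2 CPM in GFP cells (1.59, adjusted p = 1.27e-07). NEDD9, a scaffold protein of focal adhesions, stood at 45.6 and 43.4 CPM in the SOX9 line, against 14.6 and 13.8 CPM in M303 cells and 14.2 and 13.3 CPM in GFP cells (1.67, adjusted p = 1.48e-07). The potassium channel KCNN4 (1.07), the surface protein CD109 (1.02) and the secreted ribonuclease RNASE1 (1.11) differed by about the same fold from control levels of 31.7 to 48.1 CPM. EDAR, the ectodysplasin receptor, stood at 6.74 and 7.65 CPM in the SOX9 line, against 3.14 and 2.60 CPM in M303 cells and 1.76 and 1.66 CPM in GFP cells (1.69, adjusted p = 0.000139), and KRT6B, a keratin of stratified and wounded epithelia, had 1.69 (adjusted p = 4.80e-06). The cartilage collagen gene COL9A3 stood at 13.2 and 11.4 CPM in the SOX9 line, against 3.19 and 3.85 CPM in M303 cells and 2.13 and 3.63 CPM in GFP cells (1.96, adjusted p = 3.48e-05). It and COL9A2 were called higher, of 12 tested cartilage and matrix genes, against 2.15% over all genes. COL9A2 passed the filter only through the SOX9 libraries, so its call adds nothing to that count. COL9A2 had 26 and 10 counts in the SOX9 libraries and 0 in all controls, at least 22.4-fold higher against a floor of 3 counts over the controls. Its call was lost without M303 replicate 1 (0.0780) or 2 (0.0849) or SOX9 replicate 2 (0.159), and without SOX9 replicate 1 it fell below the filter and was not tested. CD74, the invariant chain of antigen presentation, had 1.45 (adjusted p = 9.93e-06). It was the 1 called of 13 tested genes of that group, against 2.15% called higher over all genes. Among 24 integrins, cadherins and claudins 5 were called higher and 0 lower, against 2.15% higher and 1.28% lower over all genes. Of the 5, the tight junction gene CLDN1 (0.64, adjusted p = 0.000143) and the surface protein gene CD24 (0.56, adjusted p = 6.30e-05) kept their call without any 1 library. Among 16 YAP targets 4 were called higher and 0 lower, against the same shares over all genes. Of these 4 the ectonucleotidase gene NT5E (0.53, adjusted p = 0.000187) kept its call without any 1 library.

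**Figure D3:**
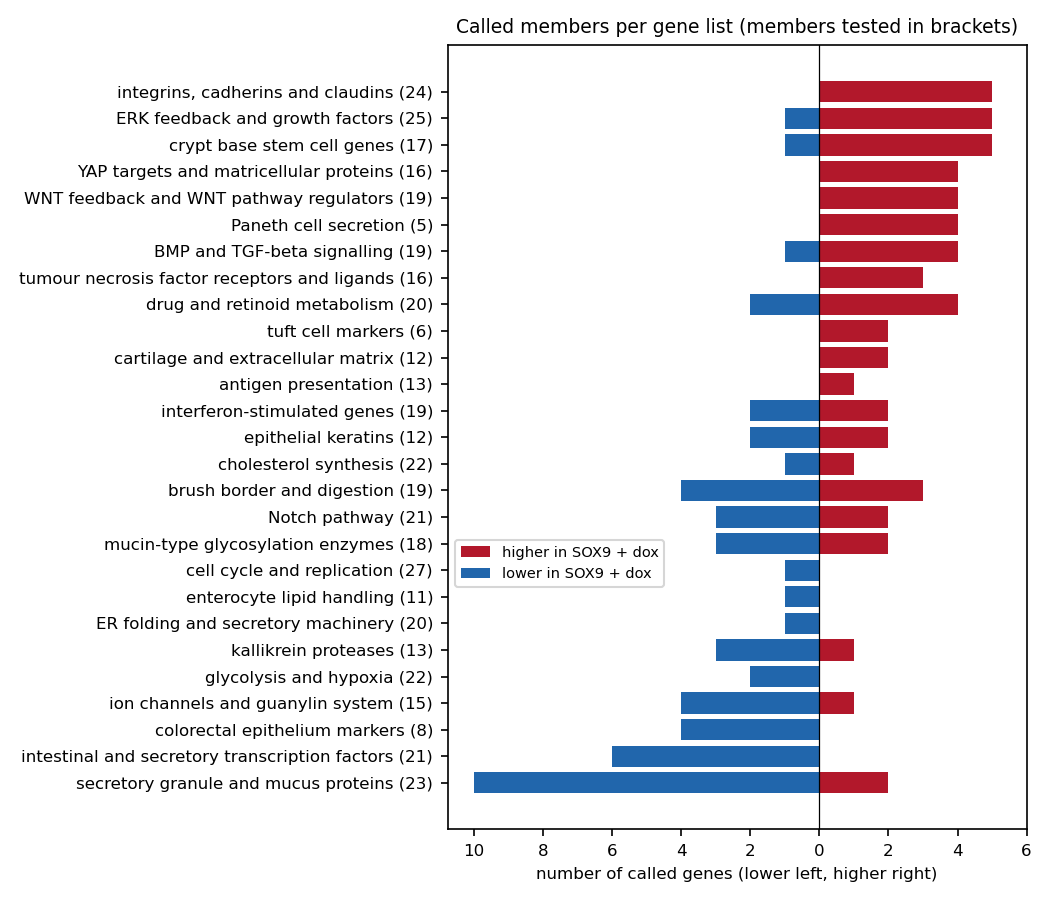
Number of called genes per gene list, higher in the SOX9 line to the right and lower to the left, with the number of tested members in brackets; lists with 0 called genes are left out. The secretory granule and mucus list has 10 lower and 2 higher genes, and the Paneth cell list 4 higher of 5 tested. Over all tested genes 2.15% were called higher and 1.28% lower.

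For the remaining lists, the shares to compare with are the 2.15% called higher and 1.28% called lower over all genes. Of 27 tested cell cycle and replication genes 0 were called higher and 1 lower, CCND2 (-0.73), a cyclin of G1 phase, whose call was lost without M303 replicate 2 (adjusted p = 0.0532) or SOX9 replicate 1 (0.343). Of 25 ERK feedback genes and growth factors 5 were called higher and 1 lower, and of these ETV4, lower by -0.46 (adjusted p = 0.000556), kept its call without any 1 library. Of 21 Notch pathway genes 2 were called higher and 3 lower, and of 22 glycolysis and hypoxia genes 0 higher and 2 lower, and 0 of these calls held without any 1 library. Of 19 interferon-stimulated genes 2 were called higher, IFI6 and IFI27 (0.74, adjusted p = 0.00269), and 2 lower. Of 20 genes of drug and retinoid metabolism 4 were called higher and 2 lower, of which CYB5R2 and the glucuronyltransferase gene UGT1A1 (-0.54, adjusted p = 0.000245), which shares exons with other genes of its locus, kept their call without any 1 library. Of 6 tested tuft cell markers 2 were called higher, IL17RB (0.34) and ALOX5 (0.68), and both lost the call without M303 replicate 2 or SOX9 replicate 1 or 2, with adjusted p up to 0.328 for IL17RB and 0.572 for ALOX5, and ALOX5 also without M303 replicate 1 (0.0575). The tuft list summed to 70.1 to 71.2 CPM in the SOX9 line and 51.7 to 56.0 CPM in the controls. Enteroendocrine markers gave 0 calls of 6 and summed to 9.26 to 11.5 CPM in the SOX9 line and 11.5 to 13.7 CPM in the controls. Of these 6 genes 3 lay below the control range and 0 above, against 12.8% and 14.1% of all genes. Their median log2 fold change was -0.675. The 13 mitochondrially encoded genes gave 0 calls.

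Few genes were called between the 2 control lines, M303 and GFP. M303 against GFP gave 2 called genes of 17240 (0.0116%), SOX9 and OLFM4, with 687 genes at an unadjusted p under 0.05, and 4 genes with DESeq2. OLFM4 was higher in M303 by 0.71 on the log2 scale (adjusted p = 0.00711). The count was 6 without GFP replicate 1, 13 without GFP replicate 2, and 1 without either M303 replicate. M303 was above GFP for 235 of the 370 higher genes and below GFP for 149 of the 221 lower genes. The median log2 fold change of M303 against GFP was 0.0479 in the higher and -0.042 in the lower genes, against -0.000212 over all tested genes. These shifts were not tested, and with 2 libraries per line a small difference may go uncalled. Against each control line by itself, SOX9 against M303 called 295 genes (1.71%), 204 higher (1.18%) and 91 lower (0.528%). SOX9 against GFP called 437 genes (2.53%), 269 higher (1.56%) and 168 lower (0.974%). Of the 591 genes 246 were called in both of these comparisons, which share the SOX9 libraries. The SOX9 against M303 count was 709 without GFP replicate 1, 714 without GFP replicate 2, 161 without M303 replicate 1, 139 without M303 replicate 2, 114 without SOX9 replicate 1 and 117 without SOX9 replicate 2. The SOX9 against GFP count was 1279 without GFP replicate 2, 169 without SOX9 replicate 1 and 172 without SOX9 replicate 2.

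The libraries without doxycycline were not used to choose the genes and show the derivatives before induction. There, SOX9 against the 2 control derivatives gave 0 called genes of 18219 with edgeR, with 569 at an unadjusted p under 0.05, and 0 with DESeq2. Among the 370 higher genes 13 (3.51%) also lay above all 4 controls without doxycycline, against 5.27% of all tested genes. Among the 221 lower genes 13 (5.88%) lay below all 4 controls, against 4.62%. Their median log2 fold change without doxycycline was 0.00065 for the higher and -0.03 for the lower genes. LYZ without doxycycline was at 56.7 and 46.9 CPM in the SOX9 line, against 46.5 and 52.3 CPM in M303 cells and 44.6 and 47.4 CPM in GFP cells. MUC2 was at 62.7 and 69.3 CPM in the SOX9 line, against 60.5 and 70.9 CPM in M303 cells and 72.5 and 78.6 CPM in GFP cells. Without doxycycline all 3 lines overlapped for LYZ. For MUC2 the SOX9 and M303 lines overlapped and both GFP libraries were above them. A test of the difference itself, with minus without doxycycline, called 186 of 18219 genes (1.02%), 132 in the higher (0.725%) and 54 in the lower direction (0.296%), and 183 of these calls were among the 591 genes. This test uses the 6 induced libraries that also chose the 591 genes, so the overlap is a description. That count was 113 without induced SOX9 replicate 1 and 100 without induced SOX9 replicate 2.

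**Figure D4:**
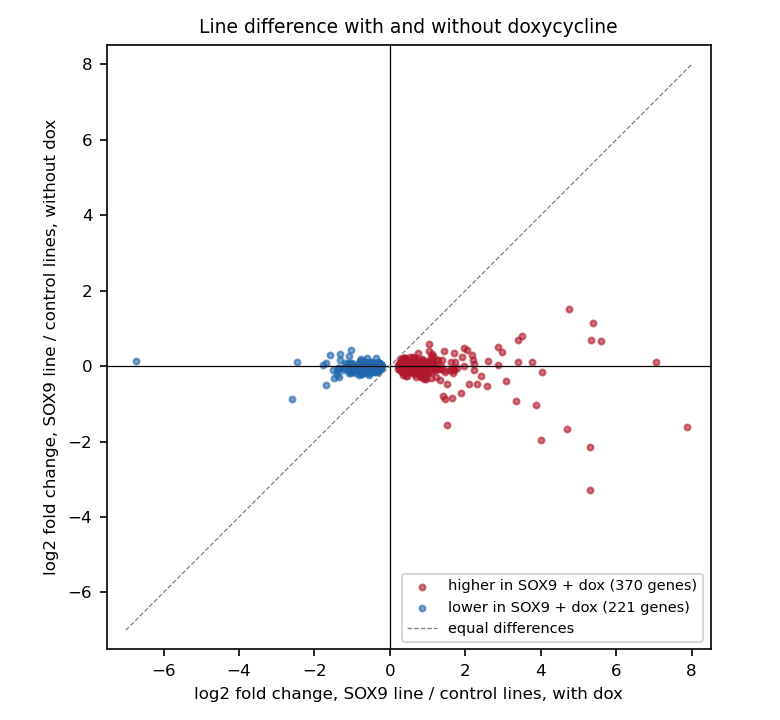
Log2 fold change of the SOX9 line over the control lines with doxycycline (horizontal) and without it (vertical), for the 370 higher and 221 lower genes, with the line of equal differences dashed. Most points lie along the horizontal axis, with medians of 0.00065 and -0.03 without doxycycline; the fold changes of genes at or near 0 counts on one side, at the far left and right, depend on the prior count of the fit.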

How the data were processed

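Polyadenylated RNA was sequenced as 150-bp read pairs, per the labels' protocols. The authors deposited raw counts, 1 count per gene and library. They aligned reads to hg38 with STAR 2.7.0a, per the submitters' processing notes, and per the file headers they counted with featureCounts 2.0.1 and Ensembl release 101, with no paired-end or strand option. Each mate was thus counted as a read, reads mapping to several places were not counted, and overlapping genes on opposite strands cannot be separated. The table has 60671 genes, 42020 with a symbol (69.3%).

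The 6 induced libraries were fitted with edgeR 4.0.16 in R 4.3.3 (TMM scaling, filterByExpr, robust quasi-likelihood F-test, 1 mean per group, 3 residual degrees of freedom, Benjamini-Hochberg adjustment over 17240 genes). The contrast was SOX9 minus the mean of M303 and GFP. Every adjusted p of a gene is from this test unless another is named. The biological coefficient of variation was 10.12%. The median standard error of log2 fold changes was 0.0979 over genes whose average log2 CPM was not negative, and it was larger for genes at lower counts. Comparisons without doxycycline and the difference between inductions used all 12 libraries (18219 genes, 6 residual degrees of freedom). The sources used here do not say whether duplicates are separate cultures, and p-values reflect the spread within pairs of libraries, possibly a technical one. No duplicates matched within counting noise (chi-square per degree of freedom 6.894 to 20.66). The scripts were tested on simulated data.

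The rule for named genes took SOX9 and LYZ and, among called genes outside the control range with a symbol and a mean of at least 1 log2 CPM, the 12 highest and 12 lowest fold changes and the 5 most abundant in each direction. It added the 3 members of each of the 33 gene lists with the smallest adjusted p, and 3 per side in the other comparisons. Other genes are named where said, and 2 called genes, 1 of them among the 12 highest, are not reported here. The members and lists were chosen with earlier results of these data known. Alternatives were DESeq2 1.42.0, other scalings and filters, a replicate block, all 12 libraries in the fit, the 4 controls as 1 group, and leaving out each library.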

Additional observations from a re-analysis of the deposited data

Results flagged for a closer look

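The line difference with doxycycline differed from that without it, by an interaction term in edgeR, for 186 genes of 18219. Of the 3 highest and 3 lowest of these by the naming rule, the difference of log2 fold changes was 4.64 for DEFA5 (adjusted p = 0.0394), 4.19 for TCN1 (adjusted p = 7.08e-05) and 3.65 for LYZ (adjusted p = 2.99e-14). It was -1.88 for KLK3 (adjusted p = 0.00191), -1.81 for FABP2 (adjusted p = 0.00159) and -1.64 for B3GALT5 (adjusted p = 0.0333). Without doxycycline KLK3 stood at 5.65 and 5.04 CPM in the SOX9 line, against 3.82 and 5.57 CPM in the M303 line and 4.05 and 3.89 CPM in the GFP line, so the SOX9 and M303 lines overlapped and both SOX9 libraries were above both GFP libraries. No group here has 4 or more libraries, so single libraries were not screened as outliers.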

How the results depend on the processing

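The 2 libraries per line limit the precision. For SOX9 against both controls the count of 592 became 1003 with no filter and 360 with the replicate block, and 176 to 1572 when 1 library was left out. For SOX9 against GFP the count of 437 became 777 with no filter, 275 with the block and 169 to 1279 without 1 library. For SOX9 against M303 the count of 295 became 569, 178 and 114 to 714 in the same order of settings. For M303 against GFP the count of 2 became 10, 1 and 1 to 13, and 4 with DESeq2. The uninduced comparison gave 2 genes with no filter and 0 under each other setting. The difference between induced and uninduced was 186, or 100 to 208 without 1 library. The count outside the control range, 4640, was 5886 to 8746 without 1 library, since fewer libraries then set the range. The cause of the other shifts was not tested. Among the induced lines replicate numbers showed no common pairing: deviations correlated by -0.246 (GFP and M303), -0.122 (GFP and SOX9) and 0.091 (M303 and SOX9). With uninduced groups included, correlations ran from -0.352 (induced GFP and uninduced SOX9) to 0.282 (induced M303 and uninduced SOX9). Their signs were mixed, and what the replicate block takes out was not tested. Of 2729 values for 196 genes under alternatives, 2329 kept direction and call, 400 lost the call and 0 reversed. No scaling moved the median of all genes by over 0.1.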
